A study of Rattus norvegicus with 9 samples.

Results

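The S100 proteins are small calcium-binding proteins, each built around a pair of EF-hands, the helix-loop-helix motif that holds calcium. A list of 10 genes of the family was looked for by symbol in a table of 17298 rat genes, and 9 were found: S100a1, S100a3, S100a4, S100a6, S100a8, S100a10, S100a11, S100a13 and S100b. S100a9 was not analysed here. The list was chosen from the deposited FPKM of these same libraries with earlier results known, so the values of its genes are given as a description, with no test.

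Messenger RNA was sequenced in 9 libraries of wild-type rat synovial fibroblasts, cells that build and maintain the lining of the joint. In the co-culture group, synovial fibroblasts stimulated with IL-1β, an inflammatory cytokine of the joint, shared a transwell with dermal fibroblasts, which sat in the upper chamber across a porous membrane (3 libraries). In the IL-1β group the stimulated synovial fibroblasts grew by themselves (3 libraries), and in the control group they were in routine culture with no IL-1β (3 libraries). The labels used here give no dose, time or age. They also leave unsaid if libraries of 1 group are separate animals, cultures or only preparations, so the spread between them, and each p-value built on it, may be technical.

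As background, S100 proteins act mainly in 2 ways. Inside the cell they pair up, open on binding calcium and attach to targets such as annexins, myosins and other cytoskeletal proteins. Some also leave the cell and act on receptors such as RAGE (Ager) and Toll-like receptor 4, and S100a8 with its partner is an abundant alarm protein of neutrophils in inflamed joints. S100a4 is a long-used marker of fibroblasts.

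Levels are FPKM, fragments per length of transcript and per size of library, a unit meant for setting genes side by side. The submitters' processing notes name a mouse build, which bears on levels between genes to an unknown degree. The sequencing depth is unknown, and the precision rests on 3 libraries per group. All 9 S100 genes passed the filter of a mean of at least 1 FPKM that left 11372 genes. The FPKM of a library summed to 704391 to 732278 in co-culture, 718498 to 741810 with IL-1β and 679774 to 696329 in control. Summed fibroblast markers reached 12060 to 12290 FPKM in co-culture, 11190 to 11380 with IL-1β and 13180 to 13740 in control. That sum hides a split: by limma 5 of its 10 genes rose with IL-1β against control and 5 fell. Of all genes kept, 20.5% rose and 31.2% fell. Summed keratinocyte markers stayed at or under 1.18 and endothelial markers at or under 1.15 in every library. Only 3 of the 7 listed keratinocyte and epithelial symbols were measured, so that sum is partial. In such bulk samples, fewer cells of a type and less RNA per cell cannot be told apart.

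S100 messages were abundant in these cells. The 9 genes held 1.84 to 2.07% of the FPKM of a co-culture library, 1.66 to 1.81% with IL-1β and about 2.08% in each control library. S100a4, S100a6 and S100a11 made up most of it, with 94.2 to 94.8% of the S100 sum in co-culture, 95.6 to 95.8% with IL-1β and 93.0 to 93.4% in control. S100a4 ranked 2 among all genes of each co-culture library, 4 or 5 with IL-1β and 2 in each control library. From there the order of mean levels in control ran down through S100a6, S100a11, S100a10, S100b, S100a13, S100a3 and S100a1 to S100a8. In co-culture the order was the same, and with IL-1β it differed in that S100a8 stood above S100a3 and S100a1. Of neighbours in the control order, S100a3 and S100a1 overlapped in all 3 groups, S100a13 and S100b in co-culture and IL-1β, S100a1 and S100a8 in IL-1β and control, and S100a4 and S100a6 in co-culture.

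**Figure D1:**
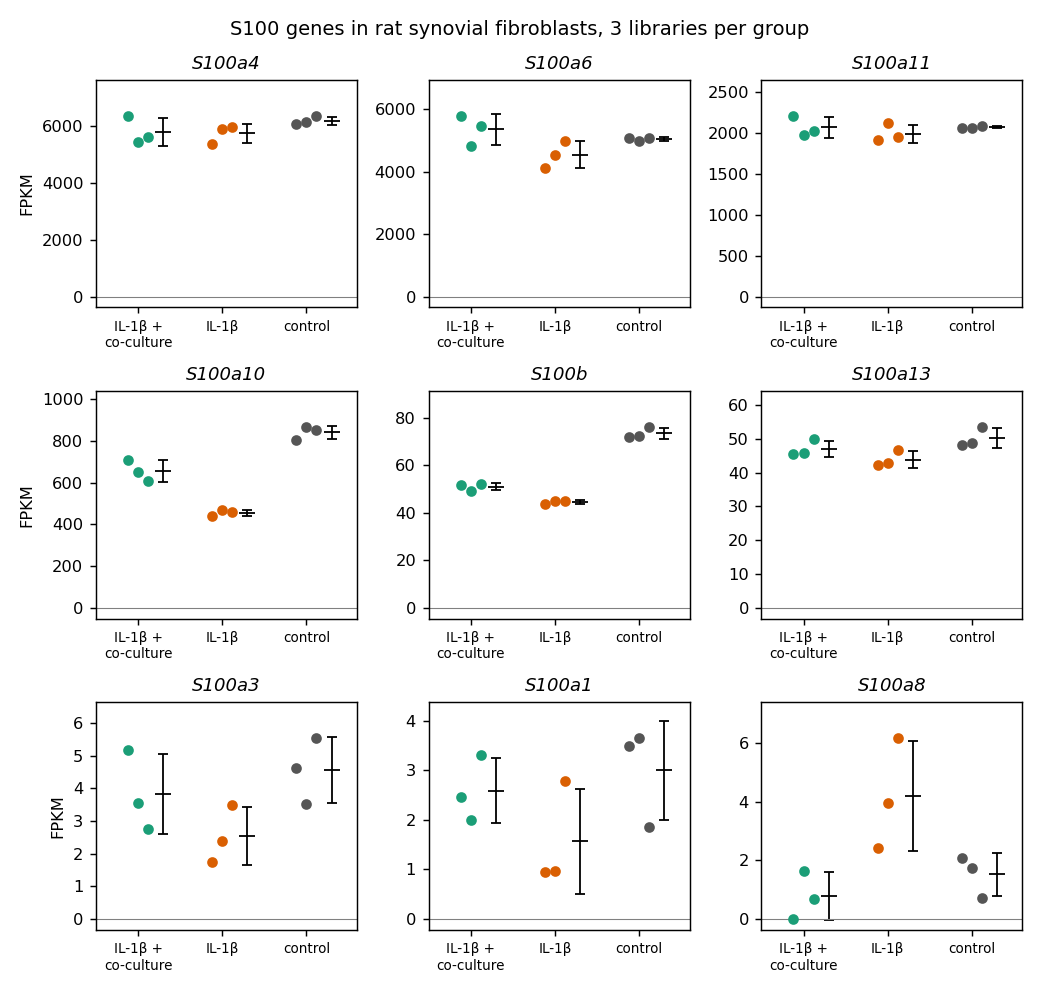
FPKM of the 9 S100 genes (vertical axes, each on its own linear scale) in co-culture, IL-1β and control libraries; points are libraries, and bars are the mean ± SD of 3. S100a10 and S100b separate the 3 groups, while S100a11 spans 1911 to 2205 FPKM over all 9 libraries.

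Per RefSeq, 8 of the 9 genes lie on rat chromosome 2, where the family is clustered, and S100b lies on chromosome 20. The stretches around the starts of S100a4 and S100a6, near neighbours at the top of the expression order, and of S100b, the separate gene whose groups did not overlap, are shown so that the genes can be set side by side. They run from 250 bases before to 50 after the start in RefSeq build GRCr8: S100a4 at chr2:178388279-178388578 on the plus strand, S100a6 at chr2:178398287-178398586 on the plus strand and S100b at chr20:12381032-12381331 on the minus strand. Capitals mark TATAAA, the TATA box letters.
S100a4: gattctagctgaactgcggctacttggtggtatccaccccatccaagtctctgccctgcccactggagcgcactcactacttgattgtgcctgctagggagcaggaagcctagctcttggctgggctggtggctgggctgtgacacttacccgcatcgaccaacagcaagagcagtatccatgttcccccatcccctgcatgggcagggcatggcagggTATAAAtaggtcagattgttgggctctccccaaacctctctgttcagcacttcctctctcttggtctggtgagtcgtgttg
S100a6: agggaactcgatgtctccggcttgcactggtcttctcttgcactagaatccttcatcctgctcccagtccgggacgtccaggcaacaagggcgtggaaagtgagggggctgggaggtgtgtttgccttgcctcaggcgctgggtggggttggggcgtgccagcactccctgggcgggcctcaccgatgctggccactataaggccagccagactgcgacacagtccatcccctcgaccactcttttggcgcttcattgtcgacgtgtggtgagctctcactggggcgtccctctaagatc
S100b: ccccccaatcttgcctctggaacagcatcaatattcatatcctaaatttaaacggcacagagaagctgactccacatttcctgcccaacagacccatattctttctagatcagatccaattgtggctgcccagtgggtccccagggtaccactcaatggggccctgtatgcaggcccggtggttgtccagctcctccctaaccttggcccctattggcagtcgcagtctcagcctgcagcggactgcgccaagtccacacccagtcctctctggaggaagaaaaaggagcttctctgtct
The TATA box letters were found in S100a4 and not in the windows of S100a6 or S100b. They occur in 14.2% of 33469 rat promoter windows of this length, read on both strands. The AP-1 letters TGANTCA occur in 7.33% of the windows, the NF-kB consensus in 4.18% and the C/EBP letters TTNNGNAA in 41.3%, and none of these 3 was found in the windows shown. GC content was 56.3% for S100a4, 61.3% for S100a6 and 54.0% for S100b.

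Between IL-1β and control, 8 of the 9 S100 genes had a lower mean with IL-1β. The IL-1β libraries lay wholly below the control libraries for 6 genes (S100a3, S100a4, S100a6, S100a10, S100a13 and S100b) and wholly above them for 1 (S100a8), and overlapped them for S100a1 and S100a11. Over all 11372 genes, 35.0% had IL-1β libraries wholly below the control libraries and 23.3% wholly above. The median difference on the log2(FPKM + 1) scale was -0.19 for the S100 genes and -0.044 for all genes kept. Dividing each library by its median ratio to a common reference left 4 genes without overlap, S100a8, S100a10, S100a13 and S100b.

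Between co-culture and IL-1β, 8 of the 9 had a higher mean in co-culture. With median-of-ratios scaling it was 6 of the 9, since S100a4 (log2 difference -0.055) and S100a11 (-0.013) turned to the other side of 0, and S100a4 was also lower without co-culture replicate 1 (-0.057) or IL-1β replicate 1 (-0.037). The co-culture libraries lay wholly above the IL-1β libraries for 2 genes (S100a10 and S100b), against 37.3% of all genes kept, and wholly below for S100a8, against 19.5%. The median log2 difference was 0.19 for the S100 genes and 0.062 for all genes kept. Without IL-1β replicate 3, S100a1, S100a3, S100a6 and S100a13 were also wholly higher in co-culture, which made 6 genes. Leaving out a library can only add such genes, and no share of all genes was taken at that setting.

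Between co-culture and control, 0 S100 genes were wholly higher in co-culture and 2 (S100a10 and S100b) wholly lower, against 22.1% and 15.6% of all genes kept. The median log2 difference was -0.14 for the S100 genes and 0.018 for all genes kept. A further 2 genes came to lie apart without co-culture replicate 1 (S100a4 and S100a11, lower), without co-culture replicate 2 (S100a6 higher, S100a8 lower) and without control replicate 3 (S100a1 and S100a8, lower). Here too, leaving out a library could only add genes, and no share of all genes was taken. The 3 comparisons share their libraries by pairs, so they are not separate evidence.

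**Figure D2:**
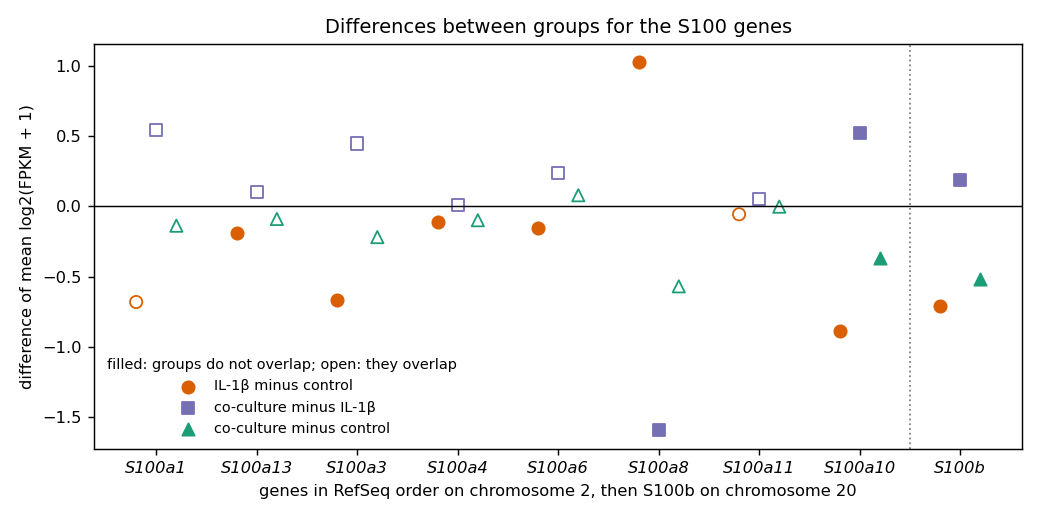
Difference of mean log2(FPKM + 1) (vertical axis) for each S100 gene in its RefSeq order on chromosome 2, then S100b on chromosome 20; circles are IL-1β minus control, squares co-culture minus IL-1β and triangles co-culture minus control, filled where the 3 libraries of each group do not overlap. S100a8 lies on the other side of 0 from S100a10 and S100b for IL-1β minus control and for co-culture minus IL-1β.

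Among the abundant, mainly intracellular members, S100a4 binds the heavy chain of non-muscle myosin and is known for its part in cell movement. It had 6360, 5427 and 5602 FPKM in co-culture, 5353, 5905 and 5965 FPKM with IL-1β, and 6065, 6154 and 6349 FPKM in control. All IL-1β libraries were below all control libraries, but narrowly: the IL-1β mean was 0.928 times the control mean, and the co-culture libraries reached from below to above the control range. Co-culture averaged 1.01 times IL-1β, with overlapping libraries and no stable direction.

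S100a6, also called calcyclin, binds the ubiquitin ligase adaptor Cacybp and the co-chaperone Sugt1. It had 5788, 4810 and 5459 FPKM in co-culture, 4127, 4530 and 4975 FPKM with IL-1β, and 5073, 4982 and 5095 FPKM in control. The highest IL-1β library (4975 FPKM) nearly met the lowest control library (4982 FPKM), and the co-culture range held all control libraries. With quantile normalization the co-culture level was below control (log2 difference -0.040), where it was above it as deposited (0.08). Means were 5352 ± 498 in co-culture, 4544 ± 424 with IL-1β and 5050 ± 59.8 in control (SD, n = 3 each). The S100a4 to S100a6 ratio of FPKM was 1.08 ± 0.053 in co-culture, 1.27 ± 0.059 with IL-1β and 1.23 ± 0.026 in control, and the co-culture libraries lay below all others for it.

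S100a11, which binds annexin A1 and takes part in membrane repair, had 2205, 1967 and 2023 FPKM in co-culture, 1911, 2112 and 1942 FPKM with IL-1β, and 2055, 2059 and 2080 FPKM in control. The groups overlapped in each comparison, and the mean with IL-1β was 0.963 times that of control. RefSeq lists 5 S100a11 pseudogenes and 2 S100a11-like genes in the rat, so its level is uncertain to the extent that the authors' counting could split reads among copies. Within co-culture, S100a4, S100a6 and S100a11 were each highest in replicate 1, the co-culture library with the highest FPKM sum, and the part of that library in their spread was not tested.

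S100a10, also called p11, no longer responds to calcium and works as the partner of annexin A2, with which it forms a complex at the cell membrane that binds plasminogen. It had 708, 651 and 606 FPKM in co-culture, 439, 469 and 458 FPKM with IL-1β, and 806, 866 and 852 FPKM in control. The 3 groups did not overlap: control was high, IL-1β low and co-culture between them. The means were 655 ± 51.4 in co-culture, 455 ± 15.3 with IL-1β and 841 ± 31.2 in control, which is 0.778 times control for co-culture, 0.541 times control for IL-1β and 1.44 times IL-1β for co-culture. Of its log2 difference between IL-1β and control, 41.1% was left in co-culture. RefSeq lists 1 S100a10 pseudogene in the rat.

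The gene of this partner, which is not in the S100 list, was tested with limma. The lists of partner genes were also chosen with earlier results of these data known. Their p-values and counts of calls are therefore not independent evidence. Anxa2 had 2003 ± 33.1 FPKM in co-culture, 1609 ± 23.8 with IL-1β and 2110 ± 30.5 in control. It fell with IL-1β by 0.39 ± 0.028 on the log2 scale (SE; limma, Benjamini-Hochberg adjusted p = 3.5e-07) and rose in co-culture against IL-1β by 0.32 ± 0.028 (limma adjusted p = 3.4e-06), while its difference of -0.08 between co-culture and control did not pass (limma adjusted p = 0.09). That last difference passed, as lower in co-culture, under each other scaling: -0.09 with median-of-ratios (limma adjusted p = 0.037), -0.23 with quantile normalization (limma adjusted p = 0.00078) and -0.13 with library sum scaling (limma adjusted p = 0.0061). Per unit of Anxa2 FPKM, S100a10 stood at 0.327 ± 0.026 in co-culture, 0.283 ± 0.012 with IL-1β and 0.399 ± 0.013 in control, so the S100a10 to Anxa2 ratio was lower than in control in every co-culture and IL-1β library.

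Ahnak, a giant scaffold protein that S100a10 and annexin A2 hold at the membrane, fell with IL-1β by 0.75 ± 0.032 on the log2 scale (limma adjusted p = 2.7e-09). It rose in co-culture against IL-1β by 0.54 ± 0.032 (limma adjusted p = 9.3e-08) and was lower in co-culture than in control (log2 difference -0.21, limma adjusted p = 0.00068). As percent of the control mean, co-culture and IL-1β stood at 77.8% and 54.1% for S100a10, at 94.9% and 76.3% for Anxa2, and at 86.3% and 59.2% for Ahnak. For each of the 3 genes co-culture lay between IL-1β and control.

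**Figure D3:**
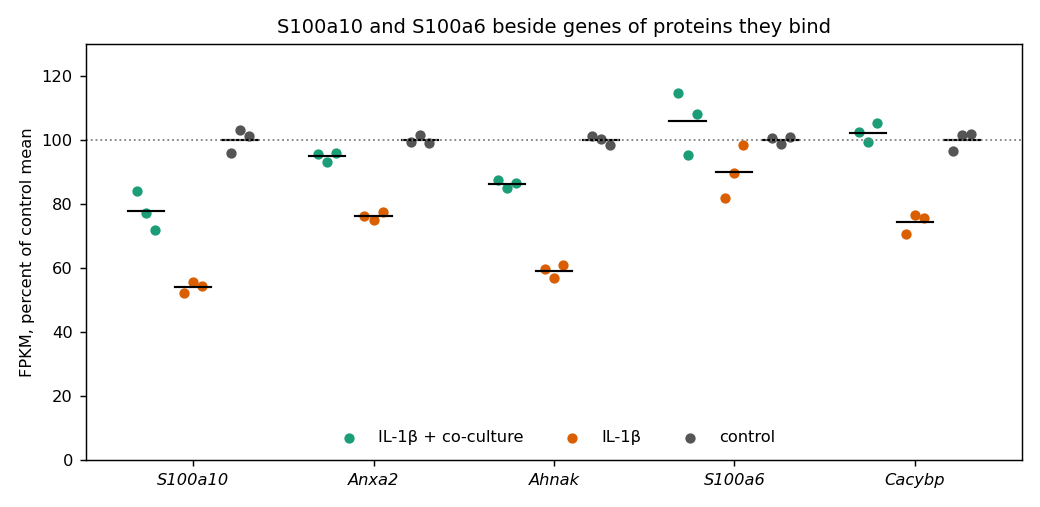
FPKM as percent of the control mean (vertical axis, from 0) for S100a10 with Anxa2 and Ahnak and for S100a6 with Cacybp, in co-culture, IL-1β and control libraries; points are libraries and bars group means. S100a10 stands at 77.8% in co-culture and 54.1% with IL-1β, Anxa2 at 94.9% and 76.3%.

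S100b is best known from glia and is also made by chondrocytes and adipocytes. It had 51.6, 49.2 and 51.9 FPKM in co-culture, 43.5, 45.1 and 45.1 FPKM with IL-1β, and 71.7, 72.2 and 76.0 FPKM in control. The 3 groups did not overlap, and both IL-1β-stimulated groups were far below control: co-culture averaged 0.694 times control, IL-1β 0.608 times control, and co-culture 1.14 times IL-1β. Of its log2 difference between IL-1β and control, 73.4% was left in co-culture, against 41.1% for S100a10.

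Markers of other S100b-making cells were measured beside it. Summed chondrocyte markers (6 of 6 measured) had 83.8 to 86.8 FPKM in co-culture, 25.4 to 27.6 with IL-1β and 200 to 214 in control. By limma 5 of the 6 were lower with IL-1β than in control, where 31.2% of all genes kept were lower and 20.5% higher. Summed adipocyte markers (6 of 6 measured) had 510 to 536 FPKM in co-culture, 475 to 518 with IL-1β and 671 to 716 in control. Fabp4 made up most of the adipocyte sum. By limma 4 of the 5 tested adipocyte markers fell with IL-1β, beside the same shares of all genes. Lpl rose, with 48.0 FPKM in co-culture, 127 with IL-1β and 52.7 in control. Both sums were high in control like S100b, and their part in the S100b values was not tested. Glial markers summed to 1.87 to 2.59 FPKM in co-culture, 1.59 to 2.02 with IL-1β and 1.99 to 2.47 in control, and 5 of the 7 were under 1 FPKM in every library, with Sox10 at no more than 0.09 FPKM.

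The S100b gene overlaps Dip2a in the annotation, and the use of strand in counting is not given in the sources used here, so reads of the pair cannot be told apart. Dip2a had 6.72 ± 0.277 FPKM in co-culture, 6.01 ± 0.355 with IL-1β and 6.99 ± 0.210 in control, a level well below that of S100b in each group.

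S100a13 helps release growth factors and IL-1α that lack a signal peptide. It had 45.6, 45.8 and 49.9 FPKM in co-culture, 42.2, 42.7 and 46.6 FPKM with IL-1β, and 48.2, 48.8 and 53.5 FPKM in control. The IL-1β libraries lay below control, with a mean 0.874 times that of control, and co-culture overlapped both. The gene of its cargo, Il1a, behaved differently: it had 1.61 ± 0.126 FPKM in co-culture, 85.3 ± 3.43 with IL-1β and 0.057 ± 0.023 in control, and rose with IL-1β by 6.35 ± 0.056 on the log2 scale (limma adjusted p = 2.8e-15). Il1a fell in co-culture against IL-1β by 5.05 ± 0.056 (limma adjusted p = 5.2e-14), and Fgf1, another cargo, was under the filter in the 3 groups.

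S100a3, known from the hair cuticle, and S100a1, known from heart and skeletal muscle, were low. S100a3 had 5.17, 3.54 and 2.76 FPKM in co-culture, 1.74, 2.38 and 3.49 FPKM with IL-1β, and 4.62, 3.51 and 5.54 FPKM in control. Its highest IL-1β library (3.49 FPKM) nearly met its lowest control library (3.51 FPKM), and RefSeq places a pair of pseudogenes over it. S100a1 had 2.47, 2 and 3.30 FPKM in co-culture, 0.95, 0.96 and 2.79 FPKM with IL-1β, and 3.49, 3.65 and 1.85 FPKM in control, with overlap in each comparison. Its IL-1β mean was 0.523 times control, and 0.319 times without IL-1β replicate 3; co-culture averaged 1.65 times IL-1β, and 2.71 times without that library. Of 6 muscle markers measured beside S100a1, 4 were under 1 FPKM in every library, among them Acta1 and Ckm at no more than 0.16 FPKM. Des, the 1 marker that was tested, had 12.99 FPKM in co-culture, 3.55 with IL-1β and 14.4 in control. Mylpf went the other way, with 0.757 FPKM in co-culture, 0.853 with IL-1β and 0.43 in control and overlapping libraries.

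S100a8, the inflammatory member and a neutrophil and monocyte protein, had 0, 1.63 and 0.69 FPKM in co-culture, 2.43, 3.96 and 6.16 FPKM with IL-1β, and 2.09, 1.74 and 0.71 FPKM in control. It was high in all IL-1β libraries, above every co-culture and control library, while co-culture and control overlapped. The mean with IL-1β was 2.76 times that of control and 5.41 times that of co-culture, where 1 library was listed at 0. The ratio to co-culture was 12.1 without co-culture replicate 2, so its size rests on single libraries near 0. Co-culture averaged 0.511 times control, but 0.767 times without co-culture replicate 1 and 0.228 times without co-culture replicate 2. This was a low level: S100a10 had at least 439 FPKM in every library.

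Of 12 measured myeloid and neutrophil markers, 7 were under 1 FPKM in every library, among them Ptprc, the common leukocyte antigen, at no more than 0.13 FPKM, and Csf3r at no more than 0.04. Of these 7, Itgam lay wholly higher with IL-1β than in control (0.637 against 0.29 FPKM), while Ptprc, Cxcr2 and Mpo lay wholly lower. Adgre1, also under the filter, lay wholly higher (1.22 against 0.487 FPKM). The 12 summed to 14.84 to 15.98 FPKM in co-culture, 30.5 to 33.8 with IL-1β and 15.5 to 17.8 in control. Camp, the neutrophil cathelicidin, carried most of the difference, with 1.69 ± 0.478 FPKM in co-culture, 14.4 ± 1.87 with IL-1β and 0.583 ± 0.195 in control, and rose with IL-1β by 3.28 on the log2 scale (limma adjusted p = 1e-08). Of the 4 markers of this list that were tested, 2 rose with IL-1β and 1 fell, where 20.5% of all genes kept rose and 31.2% fell. Camp averaged under 1 FPKM in control, so its place among the tested markers rests largely on its IL-1β libraries. Cd68 also rose, with 4.77 FPKM with IL-1β against 2.30 in control (limma adjusted p = 0.00054). Lyz2, with the highest mean over the 9 libraries, fell, with 7.99 FPKM with IL-1β against 10.65 in control (limma adjusted p = 0.0013). The part of myeloid cells in the S100a8 values was not tested. Among 787 genes with a mean of at least 1 FPKM and group means at least 2-fold apart, those whose log2 levels followed S100a8 most closely over the 9 libraries were Eno2 (Pearson r = 0.878), RGD1564744 (r = 0.846) and Slc7a11 (r = 0.838). The 9 libraries share 3 group means, so the likeness largely restates that these genes were high with IL-1β.

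Another 4 S100 genes outside the list were in the table, and of these S100a16 and S100a5 passed the filter. S100a16 lies between S100a13 and S100a3 on chromosome 2 and went the other way from them. It had 20.8, 21.8 and 19.4 FPKM in co-culture, 22.2, 25.95 and 22.4 FPKM with IL-1β, and 14.2, 17.9 and 16.2 FPKM in control. It rose with IL-1β by 0.52 ± 0.083 on the log2 scale (limma adjusted p = 0.00031) and was higher in co-culture than in control by 0.35 ± 0.083 (limma adjusted p = 0.014), a call that was lost without co-culture replicate 2 (limma adjusted p = 0.052). Its difference between co-culture and IL-1β, -0.18, did not pass (limma adjusted p = 0.097), but did with median-of-ratios scaling (-0.24, limma adjusted p = 0.035) and quantile normalization (-0.22, limma adjusted p = 0.043). S100a5 averaged 2.96 ± 1.51 FPKM in co-culture, 2.68 ± 0.587 with IL-1β and 1.62 ± 0.241 in control and passed in 0 of the 3 comparisons (limma adjusted p = 0.12 for IL-1β against control, 0.16 for co-culture against control and 0.88 for co-culture against IL-1β). Without co-culture replicate 1, the library in which S100a5 was highest, IL-1β against control passed (limma adjusted p = 0.0047). S100a7a reached at most 0.39 FPKM and S100z at most 0.05.

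The genes of proteins that S100 proteins bind were counted over 3 lists of 43 genes, of which 41 were in the table and 36 passed the filter and were tested. These lists, too, were chosen with earlier results of these data known. With IL-1β against control 12 rose and 14 fell by limma at an adjusted p under 0.05, where 20.5% of all genes kept rose and 31.2% fell. In co-culture against IL-1β 16 rose and 8 fell, where 33.3% of all genes rose and 16.7% fell. In co-culture against control 7 rose and 6 fell, where 12.4% of all genes rose and 7.91% fell. Changes in both directions stood side by side in each comparison.

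The annexins are calcium-dependent membrane-binding proteins, and 9 were tested. With IL-1β against control 1 rose and 5 fell, where 20.5% of all genes kept rose and 31.2% fell. In co-culture against IL-1β 5 rose and 2 fell (33.3% and 16.7% of all genes). In co-culture against control 0 rose and 4 fell (12.4% and 7.91%). The median log2 difference of the 9 was -0.33 with IL-1β against control and 0.14 in co-culture against IL-1β, beside -0.044 and 0.062 for all genes kept. Anxa8 had 5.33 ± 0.223 FPKM in co-culture, 0.943 ± 0.129 with IL-1β and 10.04 ± 0.654 in control; it fell with IL-1β by 2.51 ± 0.067 on the log2 scale (limma adjusted p = 4.2e-11) and rose in co-culture against IL-1β by 1.71 ± 0.067 (limma adjusted p = 2.6e-09). Anxa4 and Anxa6 fell with IL-1β by 0.45 and 0.33 (limma adjusted p = 7.3e-07 and 1.3e-06).

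Anxa1, the annexin that S100a11 binds and a mediator that limits inflammation, was the annexin that rose. It had 665 ± 4.70 FPKM in co-culture, 771 ± 37.8 with IL-1β and 689 ± 11.2 in control, with a log2 difference of 0.16 ± 0.036 for IL-1β against control (limma adjusted p = 0.0027) and -0.21 ± 0.036 for co-culture against IL-1β (limma adjusted p = 0.00049). The rise with IL-1β was lost with quantile normalization (0.0095, limma adjusted p = 0.83) and library sum scaling (0.07, limma adjusted p = 0.074), which left 0 annexins that rose. Anxa5, at 317 ± 14.3 FPKM in co-culture, 346 ± 7.86 with IL-1β and 352 ± 14.02 in control, was lower in co-culture than in both other groups (limma adjusted p = 0.02 against IL-1β and 0.021 against control). The call against IL-1β was lost without co-culture replicate 2, IL-1β replicate 2 or IL-1β replicate 3 (limma adjusted p = 0.088, 0.059 and 0.063). The call against control was lost without co-culture replicates 2 or 3 or control replicates 2 or 3 (limma adjusted p = 0.05 to 0.083).

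Of 9 tested receptors and surface partners of secreted S100 proteins, 4 rose and 2 fell with IL-1β against control, beside 20.5% and 31.2% of all genes kept. In co-culture against IL-1β 2 rose and 3 fell (33.3% and 16.7% of all genes), and in co-culture against control 2 rose and 0 fell (12.4% and 7.91%). With IL-1β against control the 4 became 2 with library sum scaling, and the 2 that rose in co-culture against control became 1 with quantile normalization and with library sum scaling. Mcam was 1 of the 2 that fell and of the 2 that rose in co-culture against IL-1β. Both Mcam calls were lost with median-of-ratios scaling and without IL-1β replicate 2 or 3; the first was also lost without control replicate 2 or 3 and the second without co-culture replicate 2 or 3, which left 1 gene each time. Cd14, which hands ligands to Toll-like receptor 4, had 15.9 ± 0.304 FPKM in co-culture, 22.7 ± 0.822 with IL-1β and 13.5 ± 0.585 in control. It rose with IL-1β by 0.71 ± 0.044 on the log2 scale (limma adjusted p = 7.7e-08), fell in co-culture against IL-1β by 0.49 ± 0.044 (limma adjusted p = 3.2e-06) and was still above control by 0.22 (limma adjusted p = 0.0041). Tlr4 itself changed less, at 3.19 ± 0.060 FPKM in co-culture, 3.65 ± 0.095 with IL-1β and 3.05 ± 0.191 in control, and rose with IL-1β by 0.20 ± 0.057 (limma adjusted p = 0.013), a call that was lost with library sum scaling (limma adjusted p = 0.1). Its fall in co-culture against IL-1β, by 0.15, passed narrowly (limma adjusted p = 0.048). That call was lost with library sum scaling, a pseudocount of 0.1 or the replicate number as a block. It was also lost without any 1 co-culture or IL-1β library, or control replicate 2 or 3. The rise of Ly96 with IL-1β (limma adjusted p = 0.027) was lost without IL-1β replicate 2 or control replicate 2 or 3.

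Bsg, a surface glycoprotein listed as a receptor for secreted S100 proteins, was the most abundant of these genes, with 444 ± 11.8 FPKM in co-culture, 480 ± 8.83 with IL-1β and 401 ± 5.18 in control, and rose with IL-1β by 0.26 ± 0.030 (limma adjusted p = 2e-05). Cd36, a scavenger receptor, went the other way: it fell with IL-1β by 0.58 ± 0.050 (limma adjusted p = 1.7e-06) and rose in co-culture against IL-1β by 0.51 ± 0.050 (limma adjusted p = 7.5e-06). Ager, which encodes RAGE, averaged 0.573 FPKM in co-culture, 0.367 with IL-1β and 0.693 in control and was under the filter.

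Of 18 tested intracellular partners, 7 rose and 7 fell with IL-1β against control, 9 rose and 3 fell in co-culture against IL-1β, and 5 rose and 2 fell in co-culture against control. The 7 that rose with IL-1β became 4 without IL-1β replicate 3, control replicate 1 or control replicate 2, and 3 with library sum scaling, with 10 that fell. In co-culture against IL-1β 6 rose and 5 fell with median-of-ratios scaling, and in co-culture against control 4 fell with library sum scaling. The shares of all genes given above hold for these counts as well. Il1a, counted among them, passed the filter only through its IL-1β libraries (85.3 FPKM, against 1.61 in co-culture and 0.057 in control). Cacybp, the S100a6 partner, had 146 ± 4.15 FPKM in co-culture, 106 ± 4.55 with IL-1β and 142 ± 4.19 in control. It fell with IL-1β by 0.43 ± 0.038 on the log2 scale (limma adjusted p = 2.2e-06) and rose in co-culture against IL-1β by 0.46 ± 0.038 (limma adjusted p = 1.7e-06), while co-culture and control differed by 0.03 ± 0.038 (limma adjusted p = 0.6). As percent of control, co-culture and IL-1β stood at 102% and 74.2% for Cacybp, beside 106% and 90.0% for S100a6.

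Vim, the intermediate filament protein vimentin, had 4342 ± 58.8 FPKM in co-culture, 2114 ± 2.73 with IL-1β and 4902 ± 52.8 in control. It fell with IL-1β by 1.21 ± 0.027 (limma adjusted p = 8.7e-12) and rose in co-culture against IL-1β by 1.04 ± 0.027 (limma adjusted p = 6.7e-11). Myh9, the non-muscle myosin heavy chain that S100a4 binds, fell with IL-1β by 0.53 ± 0.11 (limma adjusted p = 0.0054) and rose in co-culture by 0.52 ± 0.11 (limma adjusted p = 0.0067). Myh9 and Vim stood at 68.9% and 43.1% of control with IL-1β, where S100a4 stood at 0.928 times control. Among partners that rose with IL-1β were Dlc1, a tumour suppressor that acts on the cytoskeleton, by 0.63 ± 0.033 (limma adjusted p = 2.1e-08), and Atp2a2, the calcium pump that S100a1 regulates in muscle, by 0.56 ± 0.028 (limma adjusted p = 1.2e-08).

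**Figure D4:**
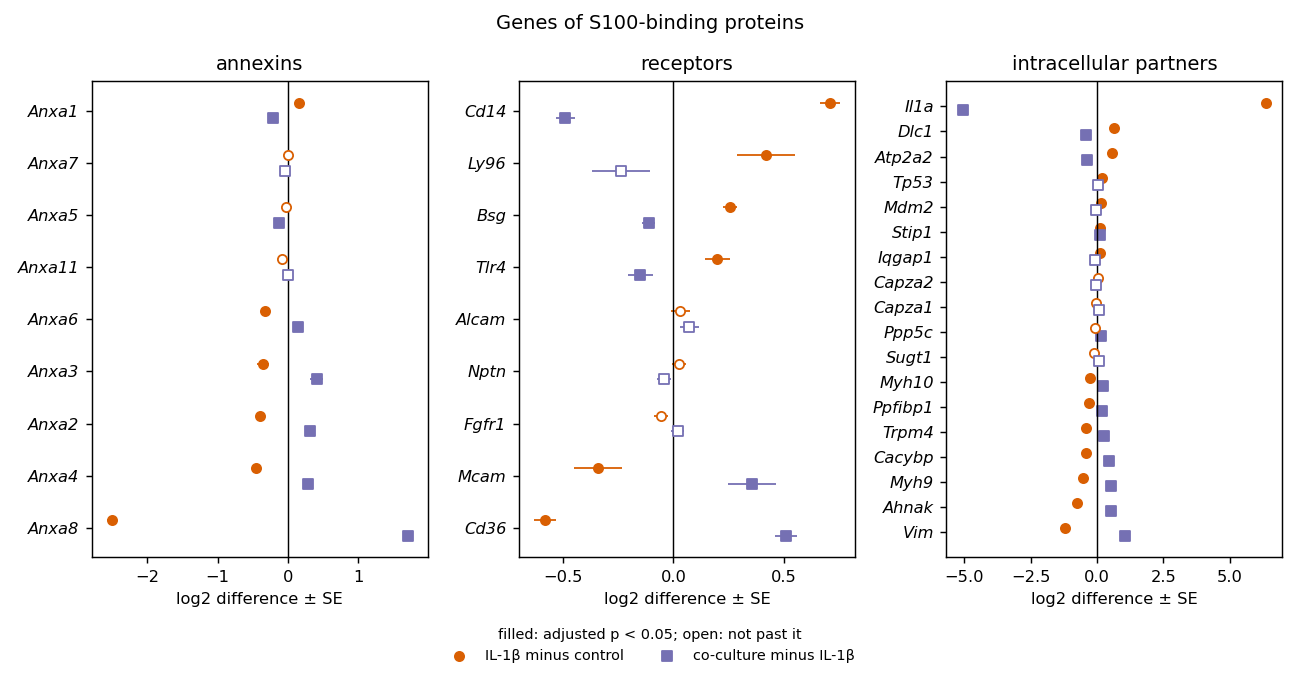
Log2 difference ± SE from limma (horizontal axes) for tested annexins, receptors and intracellular partners of S100 proteins; circles are IL-1β minus control and squares co-culture minus IL-1β, filled at an adjusted p under 0.05. Il1a rises by 6.35 with IL-1β and Anxa8 falls by 2.51, and Anxa2, Ahnak and Vim have circles below 0 and squares above it.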

How the data were processed

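The deposited values were FPKM per gene in 9 libraries, per the file headers. No source used here gives the authors' aligner, counter, annotation or use of strand. The build named in the submitters' processing notes is GRCm38, of the mouse, although the gene IDs are of the rat; how this affects levels of single genes is not known, and it bears more on levels between genes than on 1 gene across libraries. Symbols come from the deposited table, and all 9 S100 genes matched RefSeq (GRCr8) by gene ID.

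The filter, a mean of 1 FPKM or more over the 9 libraries, kept 11372 of 17298 genes. The model, on log2(FPKM + 1), which understates changes of low genes, was run in limma 3.58.1 (R 4.3.3) over all 9 libraries, 1 coefficient per group, with trend and robust moderation; tests were two-sided with Benjamini-Hochberg adjustment over all genes kept (threshold 0.05). The fit was tested on simulated data. The S100 genes got no test. Depth is unknown: low values of 82 genes were too few to recover whole reads. Of these, 7 to 15 genes per library had a value close to the gene's lowest, and only such values were used. Divided by their gene's median, they had a median of 0.975 to 1.06 per library, a closeness partly built in by that choice.

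The S100 genes, the partner lists and the marker lists were chosen with earlier results of these data known. Named genes were all S100 genes of the table, plus Anxa2, Cacybp, Ager and Tlr4. From each other list they were the genes past the threshold with the 3 largest differences per comparison, and the 2 with the highest levels. The 3 genes most like a member that varied 2-fold were also named. Anxa5, Myh9, Fgf1, Dip2a and some of the marker genes lie outside this rule and were chosen after their values were seen. Replicate numbers come from the titles. Same-numbered libraries did not deviate together (correlations of -0.046 to 0.189), so numbers were not taken as pairs. Alternatives were other scalings, filters, pseudocounts, a replicate block and leaving out each library.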

Additional observations from a re-analysis of the deposited data

How the results depend on the processing

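Counts of S100 genes whose groups did not overlap depended on the scaling: 4 instead of 7 for IL-1β against control with median-of-ratios scaling, 5 instead of 3 for co-culture against IL-1β with quantile normalization, and 4 instead of 2 for co-culture against control with library sum scaling, which was chosen after seeing the data. Leaving out 1 library gave 7 to 8, 3 to 7 and 2 to 4 in the 3 comparisons. Such counts can only stay or rise, since dropping a library cannot make separate ranges overlap. They therefore do not show that the counts are stable. S100a8, S100a10, S100a13 and S100b did not overlap in IL-1β against control under median-of-ratios or library sum scaling either. Of 378 recomputed S100 differences 8 changed sign, in 4 cases of overlapping groups (S100a4 and S100a11 for co-culture against IL-1β, S100a6 and S100a11 for co-culture against control), and 20 moved by more than 1 SD. With a pseudocount of 0.1 the S100a8 log2 difference between co-culture and IL-1β was -2.96. Library sum scaling shifted the median of all genes for IL-1β against control to -0.127. The share of higher calls among all calls was 39.7% for IL-1β against control (51.4% with median-of-ratios, 23.7% with library sum scaling), 66.6% for co-culture against IL-1β (50.4% with median-of-ratios) and 61.0% for co-culture against control (47.1% with quantile, 33.7% with library sum scaling). Partner genes past the threshold numbered 26, 24 and 13, and 21 to 26, 20 to 25 and 12 to 16 under the alternatives. With the replicate block, 5858 instead of 5874, 5708 instead of 5687 and 2227 instead of 2307 genes passed, and the partner counts were 26, 22 and 13; S100a5 then passed as higher with IL-1β and in co-culture than in control (limma adjusted p = 0.027 and 0.041), S100a16 as lower in co-culture than with IL-1β (limma adjusted p = 0.023), and Mcam lost both calls. Unknown depth limits S100a8, S100a1 and S100a3, at a few FPKM.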

Other observations

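Beyond the S100 family, 24 genes of other EF-hand proteins were tested. With IL-1β against control 6 rose and 9 fell, where 20.5% of all genes rose and 31.2% fell. In co-culture against IL-1β 9 rose and 5 fell (33.3% and 16.7% of all genes), and in co-culture against control 4 rose and 2 fell (12.4% and 7.91%). The 9 that fell with IL-1β became 5 without IL-1β replicate 1, control replicate 1 or control replicate 3, 4 with median-of-ratios scaling and 16 with library sum scaling. The 5 that fell in co-culture against IL-1β became 8 with median-of-ratios scaling, and the 4 and 2 of co-culture against control became 2 and 4 with quantile normalization and with library sum scaling. Nucb1 and Nucb2, which encode the calcium-binding nucleobindins of the Golgi, rose with IL-1β by 0.74 ± 0.031 and 0.62 ± 0.041 on the log2 scale (limma adjusted p = 2.7e-09 and 1.7e-07) and fell in co-culture against IL-1β by 0.52 ± 0.031 and 0.56 ± 0.041 (limma adjusted p = 1.1e-07 and 6.5e-07). Myl9, a myosin regulatory light chain, had 37.0 ± 1.04 FPKM in co-culture, 24.3 ± 0.830 with IL-1β and 35.5 ± 2.71 in control and fell with IL-1β by 0.53 ± 0.052 (limma adjusted p = 4.8e-06). The most abundant gene of the list, Myl6, had 1559 ± 43.7 FPKM in co-culture, 1520 ± 39.1 with IL-1β and 1526 ± 32.0 in control and passed in 0 of the 3 comparisons. With quantile normalization and library sum scaling it passed as lower with IL-1β against control (limma adjusted p = 0.00018 and 0.0052) and as higher in co-culture against IL-1β (limma adjusted p = 0.0029 and 0.036).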
